A study of Xenopus laevis with 8 samples.

Results

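Hindlimb buds are small mixed organs, and pools of dissected buds need not hold the same proportions of skin, skeleton, muscle and blood. Described here are the 200 probe sets of an Affymetrix Xenopus laevis array whose signal varied most among 8 pools of hindlimb buds once the difference between the treatments was taken away. They were chosen by measured values of the same arrays. After 120 control probe sets were set aside, 15491 were left, of which 7960 had a mean deposited intensity of 200 or more over the 8 arrays. These were quantile-normalized and put on a log2 scale, the mean of each treatment was subtracted, and the 200 probe sets with the largest standard deviation (SD) of what remained were taken. Everything said below about how these deviations are shaped is therefore a description and carries no test.

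The buds came from stage 52 tadpoles of *X. laevis*, in which the hindlimb is still growing out. For 24 h the animals were kept in cyclopamine at 1 μg/ml, an inhibitor of the Hedgehog receptor component Smoothened, or in ethanol, its solvent, added in the same volume. Each array measured 1 pool of 18 to 22 buds, with 4 pools per treatment, and the pools form 4 pairs of 1 ethanol and 1 cyclopamine pool that shared the clutch, the exposure day and the extraction. Clutch A gave the pools of pairs 1 and 2, clutch B gave those of pairs 3 and 4, and no strain or genetic change is named for the animals. A pool is called here by its treatment and pair number, such as cyclopamine 4. The limb mesenchyme list had 25 of 44 probe sets above the intensity filter on average (*pitx1*, *tbx4*, Hox genes and others), and the list of liver, pancreas, gut and serum genes had 0 of 41.

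A limb bud is a core of mesenchyme under a thin epidermis. Part of the core condenses into cartilage, which lays down type II and type IX collagen, while muscle precursors enter the bud, fuse and switch on fast myosins, troponins and creatine kinase. Red blood cells in its vessels bring in globin RNA, and tadpole epidermis holds keratin-rich cells joined by desmosomes together with secretory and ion-transporting cells. In bulk RNA, fewer cells of a type and less RNA per cell cannot be told apart, and this holds for every tissue named below.

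The SD of the deviations ran from 0.653 to 2.149 on the log2 scale among the 200, with a median of 0.773, against a median of 0.221 among all 7960. At the border of the set, an unnamed probe set at rank 199 had 0.6539 and *fbn3.L*, a fibrillin of the extracellular matrix, had 0.6532. Just outside were *stard10.L*, a lipid transfer protein, at 0.652 and a probe set of *fn1.S*, fibronectin, at 0.6513. The border is thus a gradual one. Among the 200, 124 probe sets had 1 gene symbol (110 symbols), 4 had several and 72 had none. Their median level was 8.57 on the log2 scale against 9.14 for all tested, and 51 of them (25.5%) fell under an intensity of 100 on some array, compared with 0.804% of all tested. Folds of such dim probe sets rest on low readings, and the lowest value that normalization could give on any array was 5.18.

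Only some of the 200 carried a marker of a tissue. On 14 lists of genes for tissues and cell types, 31 members (15.5%) were found, 6 more were on a list of heat shock and immediate early genes, and 163 were on no list, among them 87 with 1 gene symbol. Muscle gave the most, with 16 members of 21 tested muscle probe sets, out of 76 on the array. The filter takes the mean over the 8 arrays, so a probe set dim in some pools can pass it through others. The keratin list gave 3 of 14, other epidermal genes 3 of 27, white blood cells 3 of 10, and cartilage 1 of 8. The list of mucous cells, ionocytes and ciliated cells gave 2 of 2, out of 22 on the array. These 2 were the L and S copies of *agr2*, and no ionocyte gene was tested. The bone and connective tissue list gave 1 of 21, nerve 1 of 9 and distal limb ectoderm 1 of 8. Red blood cells gave 0 of 11, limb mesenchyme 0 of 25, endothelium 0 of 4 and pigment cells 0 of 1. The 57 tested probe sets of mitotic cell cycle genes also gave 0. Of all tested, 2.51% were members, a share at which lists of these lengths hold few or none. Most members thus carried no marker of a tissue on these lists, and whether the proportions of tissues differed between pools was not tested.

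When the 200 were grouped by the correlation of their deviations over the 8 arrays (average linkage, correlation distance of 0.5), 6 groups of 10 or more held 195 of them. They are called here by a list with members in them or by 1 named member, which need not be the one with the largest SD. One had 32 members with 16 of the muscle list, and one of 40 members held most of the epidermal members. The *fn1.S* group had 55 members, the *cfap45.S* group 33, the *cd74.L* group 18 and the *mt4.L* group 17. A group of 4 held the cartilage collagen *col9a1.L*. The first 3 components of the deviations carried 43%, 30.8% and 15.7% of their sum of squares in the 200, or 89.4% together, against 82.6% in all tested. Several probe sets of 1 gene, its L and S copies (homeologs) and its close relatives can share RNA on this array, so that members of a group are not independent of each other.

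**Figure D1:**
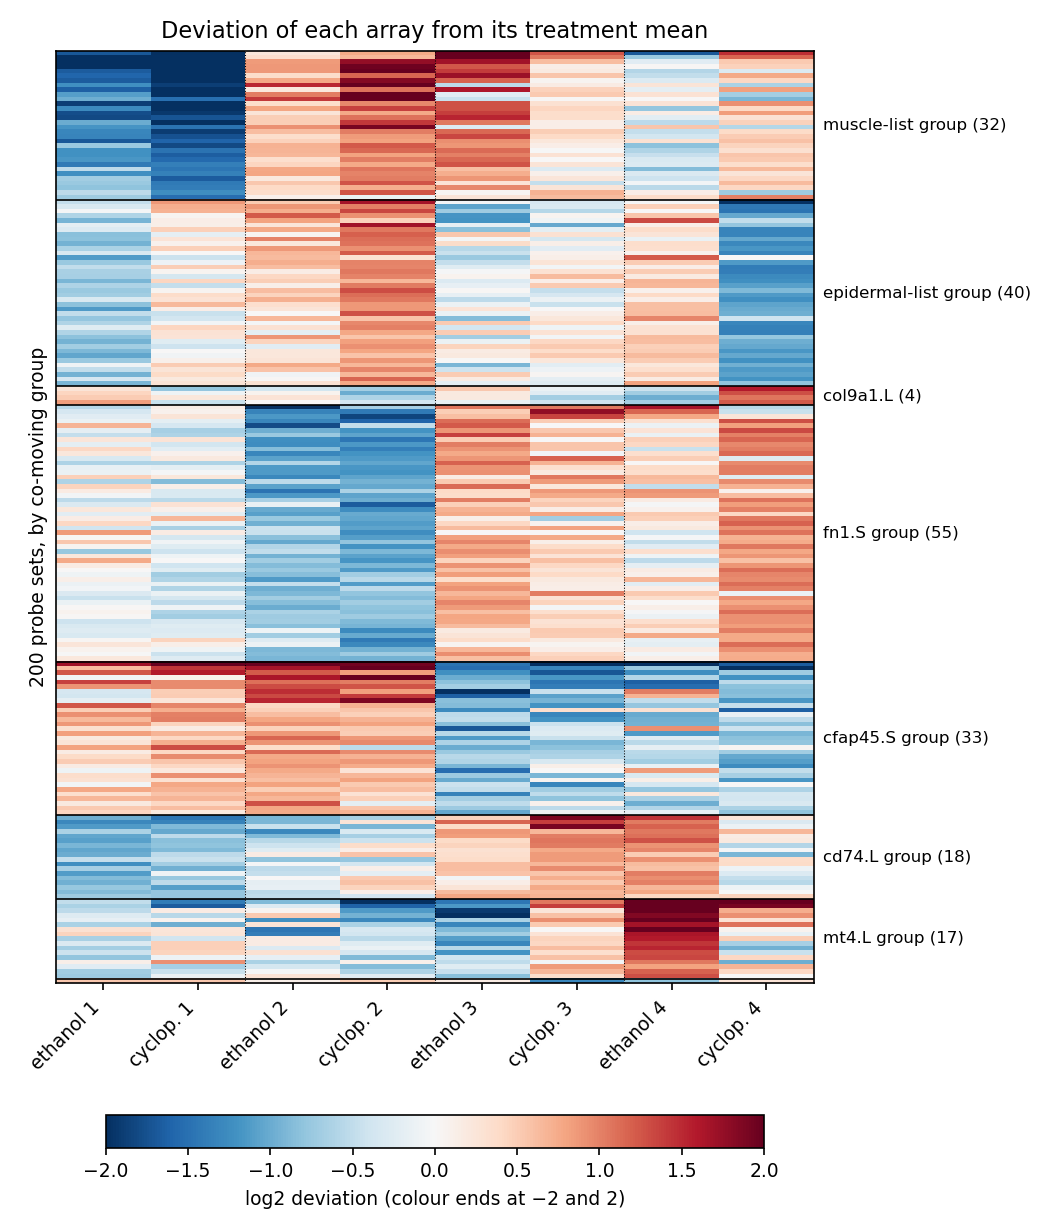
Heat map of the 200 probe sets (rows, by co-moving group) on the 8 arrays (columns, in pairs), coloured by the log2 deviation from the mean of the treatment. The 32 members of the muscle-list group are low in pair 1 (ethanol 1 is the lowest ethanol array for 30 and cyclopamine 1 the lowest cyclopamine array for 32), and the 40 members of the epidermal-list group and the group of *col9a1.L* go opposite ways in cyclopamine 4.

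The muscle-list group had the largest deviations, with a median SD of 1.123 and a median correlation between its members of 0.91. Pair 1 was low in it: ethanol 1 was the lowest ethanol array for 30 of 32 members and cyclopamine 1 the lowest cyclopamine array for 32 of 32. The probe set with the largest SD of all, for *myh8.L*, a myosin heavy chain of developing skeletal muscle, read 5.72, 7.64, 10.6 and 5.72 (log2) in ethanol 1 to 4. In cyclopamine 1 to 4 it read 5.18, 9.4, 9.92 and 10.12, a range of 42.9-fold over the arrays. Cyclopamine 1 sat at the lowest value normalization gives, pairs 2 and 3 were higher, and the arrays of pair 4 lay at opposite ends.

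Other proteins of the contractile apparatus shared the low pair 1 and read lower in ethanol 4 than in ethanol 2 and 3, while the order of the higher arrays differed between genes. *myl1.S*, an essential light chain of fast myosin, read 6.93, 8.87, 10.22 and 8.01 in ethanol 1 to 4 and 6.78, 10.42, 9.81 and 10 in cyclopamine 1 to 4. *tnnc2.L*, the calcium-binding troponin of fast fibres, read 7.05, 9.12, 9.6 and 7.55 in ethanol and 6.85, 10.41, 9.47 and 9.44 in cyclopamine. Both were near their minimum in both arrays of pair 1, and the ethanol and cyclopamine arrays overlapped. *ckm.L*, muscle creatine kinase, which buffers ATP, read 6.95, 9.19, 10.1 and 9.11 in ethanol and 7.44, 10.59, 9.92 and 10.55 in cyclopamine. *atp2a1.S*, the calcium pump of the sarcoplasmic reticulum, ran from 7.27 in ethanol 1 to 10.61 in cyclopamine 4. The remaining muscle members were *mylpf.L*, *myl1.L*, *tnnc2.S*, *tnni2.S*, *tnnt3.S*, *mybph.S* and *tpm1.L*, all parts of the thick or thin filament.

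The muscle-list group also held members that are not on the muscle list. Probe sets of *ocm4* genes, oncomodulins of the parvalbumin family of calcium buffers, ran with the sarcomere genes, and *ocm4.1.L* read 6.71, 9.86, 10.69 and 8.78 in ethanol and 6.86, 11.52, 10.38 and 10.28 in cyclopamine. It was low in pair 1 and highest in cyclopamine 2. 5 of its relatives' probe sets, *ocm4.3.L* and 4 of *ocm4.4.S*, shared the low pair 1, and their close sequences leave it uncertain how much signal each shares with the others. *thdl17.L* and *thdl18.S* differed from the muscle genes in clutch B. *thdl17.L* read 10.58, 13.31, 11.29 and 12.06 in ethanol and 9.28, 13.52, 11.32 and 10.53 in cyclopamine, so that pair 2 was higher than the other pairs. *krt19.S*, a keratin, read 8.71, 9.59, 9.27 and 9.36 in ethanol and 6.88, 9.37, 8.82 and 7.41 in cyclopamine. It was low in cyclopamine 1 and cyclopamine 4, while its L copy had a deviation SD of 0.145 and correlated with it at 0.2 over the arrays.

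5 of the 21 tested muscle probe sets were outside the 200, and they did not all follow the others. Another probe set of *ckm.L*, at rank 235, read 9.76, 10.51, 9.8 and 10.34 in ethanol and 10.07, 11.01, 10.22 and 8.88 in cyclopamine. It was lowest in cyclopamine 4, where the other probe sets of the gene were high. The highest correlation of its deviations with those of a member probe set of the gene was 0.142. *myf5.L*, a transcription factor of muscle precursors, read 8.99, 8.4, 8.65 and 8.14 in ethanol and 8.82, 8.01, 8.7 and 9.77 in cyclopamine. It was not low in pair 1. *pygm.L*, *pygm.S* and a further probe set of *atp2a1.S* had SDs of 0.1, 0.198 and 0.264.

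Probe sets that the rule could not choose showed the muscle pattern too. The array carries control probe sets for sarcomeric actins, which were left out of the 7960. The one at the 3′ end of the control named a3Act had deposited intensities of 1652, 3404.1, 6252.6 and 2122.9 in ethanol 1 to 4. In cyclopamine 1 to 4 it had 1842.7, 5886.1, 5646.5 and 6311.6. Pair 1 and ethanol 4 were the 3 lowest, as in the muscle list. Over the 8 arrays its log2 values and the mean of the muscle list had a Pearson correlation of 0.983 (Spearman 0.952, and 0.964 without the 2 arrays farthest from the median of the list). The 6 control probe sets of a1Act and a3Act lay between 0.912 and 0.983. Those of bAct, the actin of all cells, lay between −0.711 and −0.375 and those of Gapd, a glycolytic enzyme, between −0.144 and −0.014. These correlations are over arrays that share pairs and clutches and are given as a description.

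**Figure D2:**
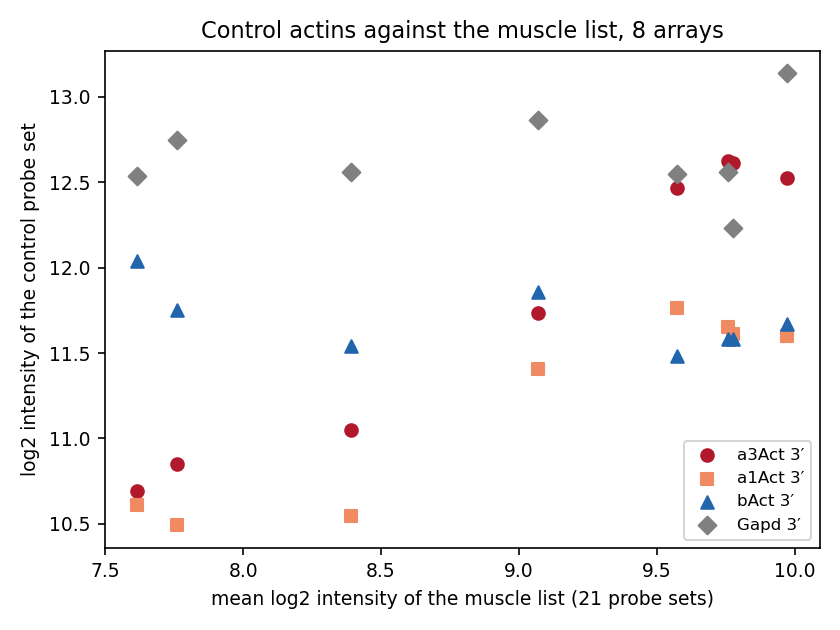
Log2 intensity of 4 control probe sets (vertical) against the mean log2 intensity of the muscle list (horizontal) on the 8 arrays. The 3′ probe set of a3Act rises with the muscle list (correlation of 0.983), and those of bAct and Gapd do not.

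As a mean over its 21 tested probe sets, the muscle list stood at 7.616, 9.071, 9.777 and 8.39 in ethanol 1 to 4 and at 7.76, 9.973, 9.575 and 9.757 in cyclopamine 1 to 4. Cyclopamine minus ethanol was 0.144, 0.902, −0.202 and 1.367 in pairs 1 to 4. The mean and SD were 8.71 ± 0.925 for ethanol and 9.27 ± 1.017 for cyclopamine (n = 4 each). Pair 1 was thus low in both treatments, and pair 4 was low in ethanol alone.

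The epidermal-list group had 40 members with a median SD of 0.72. Cyclopamine 2 was the highest cyclopamine array for 40 of 40, cyclopamine 4 the lowest for 38, and ethanol 1 the lowest ethanol array for 30. *capn9.L*, a calcium-activated protease of epithelia, read 7.43, 8.44, 7.89 and 7.88 in ethanol and 8.22, 9.02, 7.03 and 5.18 in cyclopamine. The last value is the lowest that normalization gives. Members known from the surface of stratified epithelia were *krt70.S*, a keratin, *evpl.L* (envoplakin, which links keratin to desmosomes), *upk1b.S* (a uroplakin), *cnfn.1.S* (cornifelin of the cornified envelope) and *atp12a.L* (a proton pump).

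*krt70.S* read 8.77, 9.66, 10.15 and 9.86 in ethanol and 9.03, 10.4, 9.51 and 7.89 in cyclopamine. *evpl.L* read 9.94, 10.73, 10.57 and 11.1 in ethanol and 10.4, 11.4, 10.65 and 8.96 in cyclopamine. Cyclopamine 4 was the lowest of the 8 arrays for both. *agr2.L*, a protein disulfide isomerase of mucus-secreting cells, read 8.48, 9.94, 8.75 and 9.74 in ethanol and 9.06, 10.15, 9.41 and 8.01 in cyclopamine. Its S copy had its lowest reading in ethanol 1, at 9.68, and 10.35 in cyclopamine 4, and the related *ag1.L* and *ag1.S* were in the same group. *wnt3a.S*, a Wnt ligand of the limb ectoderm, read 7.7, 8.18, 8.85 and 8.88 in ethanol and 8.14, 9.46, 9.07 and 7.52 in cyclopamine.

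Single genes from the lists of other cell types ran with the epidermal members. *ctss.S*, cathepsin S, a protease of antigen-presenting cells, read 7.82, 9.31, 7.89 and 8.79 in ethanol and 9.16, 9.61, 8.47 and 7.53 in cyclopamine. *syt1.L*, a calcium sensor of synaptic vesicles, read 7.66, 8.79, 8.19 and 8.75 in ethanol and 8.64, 9.38, 7.95 and 7.13 in cyclopamine. In these and in *sqor.S*, a mitochondrial enzyme of sulfide oxidation, cyclopamine 4 was the lowest array. Outside the 200, 234 of 7760 probe sets (3.02%) followed the mean of the group with a correlation over 0.9, and 15 of the 24 remaining probe sets of the epidermal junction list were among them, beside 2 of the 11 remaining keratins. 1 of the 24 had a correlation under −0.9 instead. The lists that hold *ctss.S* and *syt1.L* did not run with the group as a whole. Of the 7 white blood cell probe sets outside the 200, 1 followed over 0.9 and 2 lay under −0.9. Of the 8 nerve probe sets outside the 200, 2 lay under −0.9, where 232 of the 7760 did. Cyclopamine 4 was the highest cyclopamine array for 7 of these 8, against 34.2% of the 7760.

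The epidermal lists were also read whole, members included. The mean of the 14 keratin probe sets was 10.003, 10.588, 10.631 and 10.769 in ethanol 1 to 4 and 10.224, 10.949, 10.608 and 9.719 in cyclopamine 1 to 4. Cyclopamine minus ethanol was 0.221, 0.361, −0.023 and −1.05 in pairs 1 to 4, and the small difference of pair 3 changed sign when array medians were used (0.034). The 27 probe sets of junctions and other epidermis gave 0.447, 0.487, 0.145 and −1.105. They include *dscc1.L*, a gene of sister chromatid cohesion taken in by its symbol, which was also lowest in cyclopamine 4. Cyclopamine 4 was the lowest cyclopamine array for 12 of 14 keratin and 24 of 27 junction probe sets, against 32.9% of all tested. Without the 3 members of each list it was 10 of 11 keratin and 23 of 24 junction probe sets, against 32.9% of the 7760 outside the 200. The exceptions there were *krt19.L* and *sult2b1.S*, a sulfotransferase of steroids, both highest of the cyclopamine arrays in cyclopamine 4. The means of both lists had a correlation of 0.983 over the arrays.

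Cartilage ran the other way. *col9a1.L*, a chain of type IX collagen that coats cartilage fibrils, read 8.5, 7.87, 8.78 and 7.81 in ethanol 1 to 4 and 7.68, 7.76, 8.31 and 10.04 in cyclopamine 1 to 4. *frzb.S*, a secreted Wnt antagonist made by forming cartilage, read 8.45, 7.61, 7.46 and 6.94 in ethanol and 7.84, 7.9, 7.87 and 9.5 in cyclopamine. Together with 2 unnamed probe sets they made the group of 4, in which cyclopamine 4 was the highest cyclopamine array and ethanol 4 the lowest ethanol array for 4 of 4. The mean cyclopamine minus ethanol of this group was 2.319 in pair 4 and −0.444, −0.329 and −0.225 in pairs 1 to 3.

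The other 7 tested cartilage probe sets were outside the 200, and cyclopamine 4 was the highest cyclopamine array for 6 of them, against 34.2% of the 7760 outside the 200. *cnmd.L*, chondromodulin, read 10.28, 10.1, 9.81 and 9.84 in ethanol and 10.01, 9.55, 9.86 and 11.17 in cyclopamine. *sox9.S*, the transcription factor that sets up cartilage, read 10.65, 9.87, 10.69 and 10.06 in ethanol and 10.65, 10.45, 10.63 and 11.35 in cyclopamine. *col2a1.S*, the main cartilage collagen, ranged only from 10.89 in cyclopamine 1 to 11.7 in cyclopamine 4. The exception was *wif1.S*, another secreted Wnt antagonist, at 8.24 in cyclopamine 4 and 8.33 in cyclopamine 1. The mean of the list of 8, *col9a1.L* included, was 9.784, 9.437, 9.875 and 9.536 in ethanol and 9.618, 9.377, 9.737 and 10.492 in cyclopamine. Cyclopamine minus ethanol was thus −0.166, −0.06, −0.138 and 0.955 in pairs 1 to 4. High readings in cyclopamine 4 were not particular to cartilage. Outside the 200, it was the highest cyclopamine array for 7 of 8 nerve, 3 of 4 endothelial and 15 of 25 limb mesenchyme probe sets. Their mean differences in pair 4 were 0.467, 0.18 and 0.374, against 0.774 for the 7 of cartilage. For connective tissue the count was 6 of 20, for red blood cells 5 of 11 and for muscle 2 of 5.

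**Figure D3:**
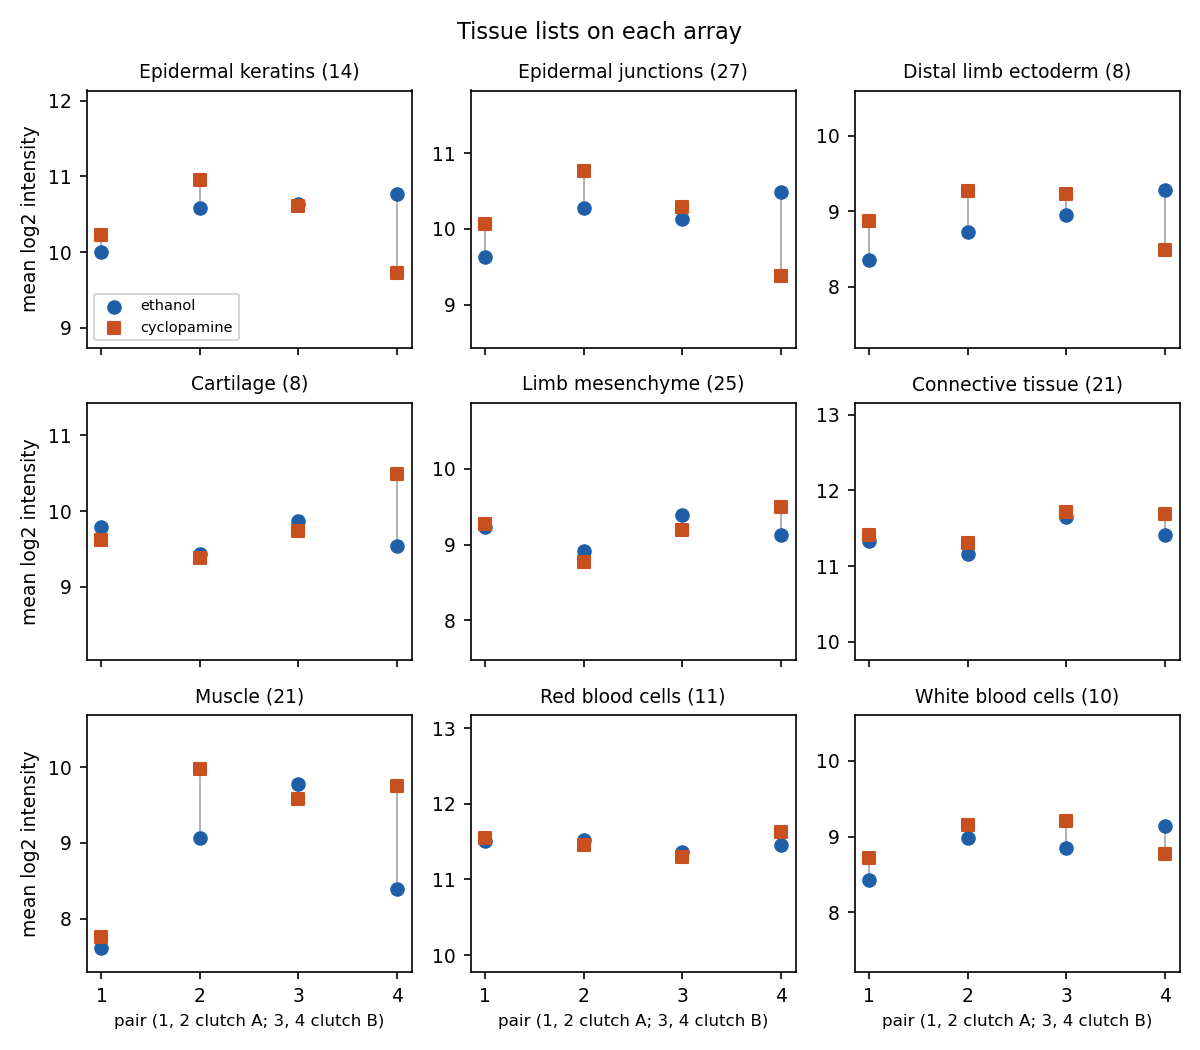
Mean log2 intensity of 9 tissue lists (number of tested probe sets in brackets) by pair, with ethanol as circles and cyclopamine as squares joined within a pair. Every panel spans the same height on the log2 scale. In pair 4 the keratin and junction lists are lower with cyclopamine (−1.05 and −1.105) and the cartilage and muscle lists higher (0.955 and 1.367). Of the 21 muscle probe sets 16 are members, and the 5 others had a difference of 0.289.

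Set against each other over the 8 arrays, the junction and cartilage lists had a Pearson correlation of −0.862 (Spearman −0.69, and −0.668 without the 2 farthest arrays). The keratin and cartilage lists had −0.782 (Spearman −0.571, and −0.404 without the 2 farthest arrays). Cartilage and limb mesenchyme had 0.861 (Spearman 0.857, and 0.74 without cyclopamine 2 and cyclopamine 4, its farthest arrays), and junctions and mesenchyme −0.784. Muscle stood apart, with 0.161 against cartilage and 0.391 against keratins, the latter falling to −0.04 without the 2 farthest arrays. These values come from 8 arrays of 2 clutches that share 1 normalization, in which a gain of one part of the signal lowers the rest.

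Red blood cell genes gave no member. The 11 tested red blood cell probe sets had a median deviation SD of 0.14, lower than the 0.221 of all tested, and the highest was 0.444 for *slc4a1.L*, the anion exchanger of the red cell membrane. Of the 11, 5 lay above 0.221. Of the 6 globin probe sets, 4 lay at or below 0.14, and these 4 had log2 levels of 13.88 or more. *hba-l5.L*, a globin with lower levels, from 9.57 in ethanol 3 to 10.72 in ethanol 2, had an SD of 0.37. *hba4.S*, an alpha globin, read 14.36, 14.87, 14.02 and 14.81 in ethanol and 14.68, 14.71, 13.88 and 14.33 in cyclopamine. *hbd.S*, a beta-type globin, stayed between 15.03 and 15.23 on the 8 arrays, near the top of the intensity range, where array signals can be compressed. The list mean differed between cyclopamine and ethanol by 0.048, −0.078, −0.066 and 0.17 in pairs 1 to 4, and the sign of the pair 4 value depended on the intensity filter (−0.074 at a mean of 400 or more, where 7 probe sets were left).

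White blood cell genes gave 3 members and lay in different groups. *cd74.L*, the invariant chain that guides MHC class II, read 8.62, 9.13, 9.99 and 10.45 in ethanol and 8.66, 9.83, 10.52 and 8.89 in cyclopamine. *psmb8.L*, a subunit of the immunoproteasome, read 7.21, 8.08, 8.03 and 9.01 in ethanol and 7.39, 8.68, 8.87 and 7.68 in cyclopamine. Both were lowest in pair 1, and within clutch B cyclopamine 4 was the lowest for both. The S copy of *cd74*, outside the 200, had deviations that correlated with those of *cd74.L* at 0.933. Over the 10 tested white blood cell probe sets, cyclopamine minus ethanol was 0.291, 0.17, 0.361 and −0.363 in pairs 1 to 4. Over the 7 outside the 200 it was 0.193, 0.013, 0.237 and 0.074. Cyclopamine 4 was the highest cyclopamine array for 3 of these 7 (*cd37.L*, *lsp1.S* and *cyba.L*) and the lowest for 1.

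*cd74.L* and *psmb8.L* were part of a group of 18, in which ethanol 1 was the lowest ethanol array for 16 members, ethanol 4 the highest for 15 and cyclopamine 3 the highest cyclopamine array for 16. Its other members had varied roles. *slc7a5.L*, a transporter of large neutral amino acids, read 7.84, 7.98, 9.7 and 9.97 in ethanol and 7.84, 7.71, 9.4 and 8.52 in cyclopamine. *trim29.L*, on the epidermal list, read 9.33, 10.13, 10.68 and 11.35 in ethanol and 9.33, 10.34, 10.97 and 10.18 in cyclopamine. *zfp36.L*, which destabilizes cytokine mRNAs, ran from 8.21 in ethanol 2 to 9.97 in cyclopamine 3, and *mmp3.L*, a matrix metalloproteinase, from 7.6 in ethanol 1 to 9.75 in ethanol 4. The mean of the group was higher in clutch B, except that cyclopamine 4, at 8.708, lay close to cyclopamine 2, at 8.672.

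The *fn1.S* group, with 55 members, was the most numerous. It was high in ethanol 3 (highest ethanol array for 41) and cyclopamine 4 (highest cyclopamine array for 44) and low in pair 2, where ethanol 2 was the lowest for 49 and cyclopamine 2 for 52. *fn1.S*, fibronectin of the extracellular matrix, read 9.84, 8.58, 10.33 and 8.98 in ethanol and 9.87, 8.7, 10.62 and 11.11 in cyclopamine. Its 3 probe sets outside the 200 had deviations that correlated with those of the member at 0.956 to 0.979. *pax3.L*, a transcription factor of muscle precursors that enter the limb, read 10.68, 9.61, 11.89 and 11.27 in ethanol and 10.8, 10.01, 11.72 and 12.12 in cyclopamine. Unlike the sarcomere genes, *pax3.L* was lowest in pair 2 and not in pair 1.

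Matrix genes in this group also included *ltbp1.S*, which holds latent TGF-beta in the matrix, and *fbn3.L*. Only *fn1.S* among the members was on the bone and connective tissue list. Named members with a larger SD than *fn1.S* were *klf2.S* (1.125), *ythdc1.L* (0.906), *eef1a1.S* (0.897) and *pax3.L* (0.886), all on no list. A further probe set of *eef1a1.S* had an SD of 0.067 and a correlation of 0.573 with the member. For *ythdc1.L* these values were 0.297 and 0.97. *smo.L*, which encodes Smoothened, the protein that cyclopamine binds, was a member and is named because it is the drug target. Its values of 7.84, 7.58, 9.07 and 8.63 in ethanol and 7.87, 7.35, 8.52 and 9.16 in cyclopamine were higher in clutch B on every array. Another probe set of the gene had an SD of 0.369 and a correlation of 0.621 with it. Immediate early genes, which respond within minutes to many stimuli, were in the group as well. *egr1.L*, a zinc finger factor, read 10.04, 9.17, 11.01 and 10.78 in ethanol and 10.01, 9.19, 10.99 and 10.63 in cyclopamine, *nr4a1.L* was lowest in ethanol 2 at 5.91, and *dusp1.L*, a MAP kinase phosphatase, was lowest in ethanol 2 at 8.66. The arrays of pair 2 were the low ones for these 3 genes, and for only part of the heat shock and immediate early list. Ethanol 2 was the lowest ethanol array for 14 of the list's 27 tested probe sets (51.9%), against 29.2% of all tested. Cyclopamine 2 was the lowest cyclopamine array for 13 (48.1%), against 33.6%. Of the list's 21 probe sets that are not members, 1 followed the group mean with a correlation over 0.9 and 4 had one under −0.9. Among the 7760 outside the 200 it was 502 (6.47%) and 483. The mean of the *fn1.S* group and that of the bone and connective tissue list had a correlation of 0.952 over the arrays. The list and the group share *fn1.S*, whose probe sets had the largest SDs on the list (0.863, 0.651, 0.571 and 0.387), so they are not independent. Of the list's 20 probe sets that are not members, 5 followed the group mean with a correlation over 0.9, against 6.47% of the 7760. Cyclopamine 4 was the highest cyclopamine array for 6 of these 20, against 34.2% of the 7760.

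The *cfap45.S* group, with 33 members, was the mirror image: its mean and that of the *fn1.S* group had a correlation of −0.92 over the arrays. For 26 of its 33 members all 4 clutch A deviations lay above all 4 of clutch B, against 1047 of the 7960 tested. In the *fn1.S* group those of clutch B lay above those of clutch A for 25 of 55, against 745 of the 7960. The groups were formed from the same deviations, so these counts are a description. *cfap45.S*, a protein of motile cilia, read 8.9, 8.65, 6.73 and 5.91 in ethanol and 8.13, 8.21, 5.72 and 6.65 in cyclopamine. *ensa.S*, an inhibitor of protein phosphatase 2A, read 8.87, 8.04, 6.78 and 6.85 in ethanol and 8.31, 8.04, 6.13 and 6.86 in cyclopamine. For both of these genes the clutches did not overlap in either treatment.

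Not every member of that group followed the clutch closely. *gstp1.L*, a glutathione transferase, read 10.89, 12.69, 9.06 and 12.24 in ethanol and 12.63, 12.95, 11.69 and 11.28 in cyclopamine, so that ethanol 3 stood lowest and ethanol 4 lay close to ethanol 2. *hsph1.L*, a heat shock chaperone of the HSP110 family, read 9.26, 9.25, 7.51 and 9.09 in ethanol and 8.49, 8.32, 8.1 and 6.13 in cyclopamine. Its clutch A deviations all lay above those of clutch B. The group also held *npm3.L* and *mrto4.L*, which act in ribosome assembly in the nucleolus, *timm50.L*, which helps to import proteins into mitochondria, and both copies of *higd1a*, a mitochondrial protein induced by low oxygen.

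Over all 200, the 4 deviations of one clutch lay wholly above those of the other for 60 members (30%), 26 with clutch A higher and 34 with clutch B higher. Among all tested it was 22.5%, with 1047 and 745. Since the deviations chose the members, nothing is read from the gap between those shares. Exposure day and extraction were shared within a pair and every pair is of 1 clutch, so that clutch and handling cannot be told apart.

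In the *mt4.L* group, with 17 members, ethanol 4 was the highest ethanol array for 17 of 17. The mean cyclopamine minus ethanol of the group was 1.215, 0.58, 2.559 and −0.22 in pairs 1 to 4. Cyclopamine was higher for 16 of 17 members in pair 1, 11 of 17 in pair 2 and 17 of 17 in pair 3. Among all tested, the shares higher with cyclopamine in these pairs were 48.1%, 46.8% and 47.3%. *acod1lb.L*, a relative of the enzyme that makes itaconate in mammalian macrophages, read 6.13, 5.72, 5.18 and 9.44 in ethanol and 6.36, 5.18, 8.82 and 10.68 in cyclopamine. *phyhdlb.L*, annotated as a relative of phytanoyl-CoA dioxygenases, read 7.25, 7.62, 6.74 and 9.96 in ethanol and 8.08, 8.13, 11.13 and 11.65 in cyclopamine. Both were high in ethanol 4 and in both cyclopamine arrays of clutch B, and low in ethanol 3. *socs3.L*, a feedback inhibitor of cytokine signalling, read 7.17, 7.04, 7.14 and 8.2 in ethanol and 6.97, 6.78, 8.49 and 8.32 in cyclopamine. *cebpb.L*, a transcription factor of inflammatory and metabolic genes, read 7.05, 7.74, 7.29 and 8.93 in ethanol and 8.11, 7.95, 9.22 and 8.97 in cyclopamine. *mt4.L*, a metallothionein that binds zinc and copper, is described with the treatment below, and *cnfn.1.L*, the L copy of the cornifelin of the epidermal-list group, was here and not there.

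**Figure D4:**
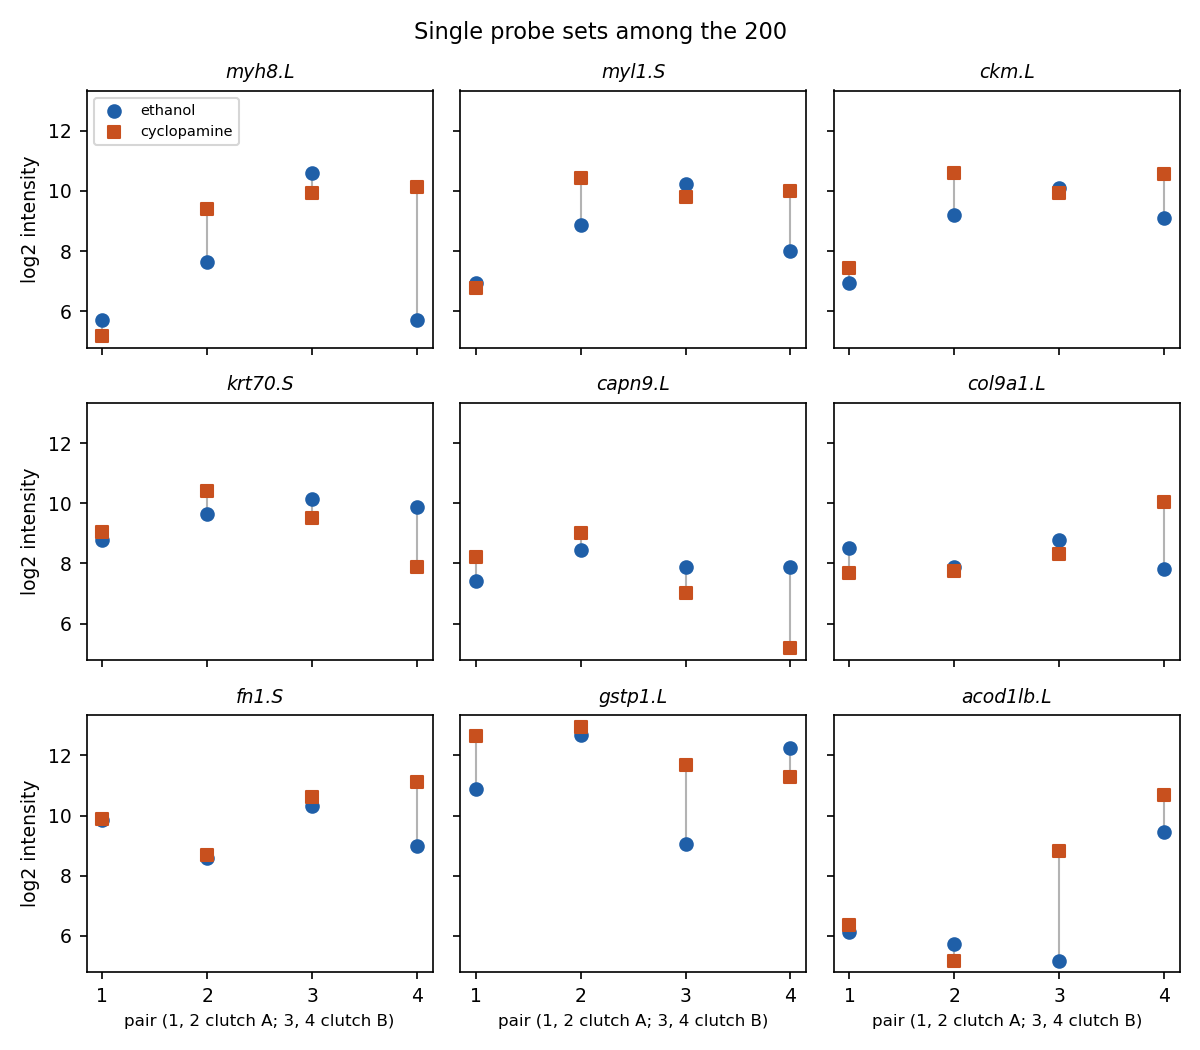
Log2 intensity of 9 members, each at its probe set with the largest SD, by pair, with ethanol as circles and cyclopamine as squares joined within a pair. *myh8.L*, *myl1.S* and *ckm.L* are low in pair 1, *krt70.S* and *capn9.L* are lowest and *col9a1.L* highest in cyclopamine 4, and *acod1lb.L* is high in pair 4 and cyclopamine 3.

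Pair 4 stood apart most clearly in the difference between its own arrays. The median size of cyclopamine minus ethanol over the 200 was 0.412, 0.492 and 0.426 in pairs 1 to 3 and 1.223 in pair 4. Over all tested it was 0.196, 0.204, 0.157 and 0.32. Pair 4 had the largest difference of the 4 pairs for 115 of the 200 (57.5%) and for 47.4% of all tested. In pair 4, cyclopamine was lower for 40 of 40 members of the epidermal-list group and for 15 of 18 of the *cd74.L* group. It was higher for 27 of 32 of the muscle-list group, 47 of 55 of the *fn1.S* group and 4 of 4 with *col9a1.L*. In the *cfap45.S* group it was higher for 16 of 33 and in the *mt4.L* group for 7 of 17.

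In the other pairs, treated and untreated pools of a pair deviated together. The deviations of the 200 had a correlation across probe sets of 0.749 in pair 1, 0.801 in pair 2, 0.465 in pair 3 and 0.053 in pair 4. Over all tested the values were 0.495, 0.672, 0.378 and −0.108. Across the pairs of clutch B, ethanol 3 went with cyclopamine 4 at 0.498 and ethanol 4 with cyclopamine 3 at 0.557 in the 200 (0.603 and 0.367 over all tested). In the 200, both cyclopamine pools of clutch B were thus closer to the ethanol pool of the other pair than to that of their own. In clutch A, ethanol 1 with cyclopamine 2 gave −0.299 and ethanol 2 with cyclopamine 1 gave 0.073. Probe sets are not independent replicates, and the subtraction of treatment means pushes correlations within a treatment below 0.

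No single array carried the deviations of the 200. Pairs 1 to 4 held 26%, 28.8%, 20.7% and 24.5% of their sum of squares, where an even share is 25%. Over all tested, pair 1 held 18.1% and pair 4 held 28.8%. Cyclopamine 2 had the highest share of 1 array, 18.2%, and cyclopamine 1 had 15.4% against 8.69% over all tested. Cyclopamine 4 had the largest single deviation for 50 of the 200 (25%) and for 21.2% of all tested. Both arrays of pair 4 together had it for 76 (38%) and for 31.3% of all tested.

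**Figure D5:**
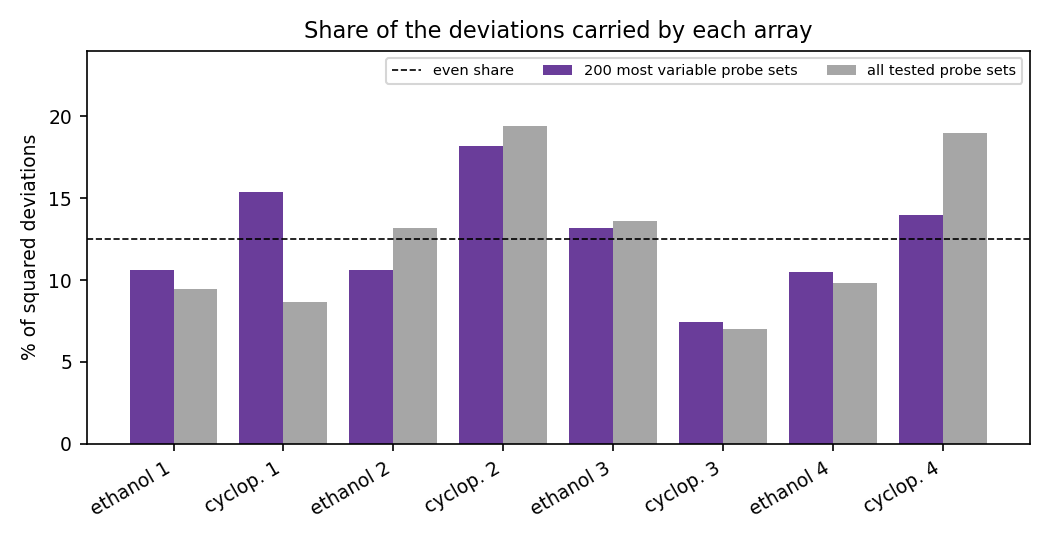
Share of the squared deviations carried by each array, in percent, for the 200 probe sets (dark) and all 7960 tested (light), with the even share of 12.5% dashed. Cyclopamine 2 carries 18.2% of the 200 and cyclopamine 1 carries 15.4%, and cyclopamine 4 has a larger share over all tested (19%) than in the 200 (14%).

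RNA quality and array brightness were compared beside these patterns. The median deposited intensity ran from 191.6 in ethanol 2 to 221 in cyclopamine 4. The ratio of 3′ to 5′ control signal ran from 5.41 (cyclopamine 4) to 6.98 (ethanol 2) for Gapd and from 0.197 (ethanol 4) to 0.302 (ethanol 2) for bAct. The lowest ratios of both controls thus lay in pair 4 and the highest in ethanol 2. Their part in the differences was not tested.

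The comparison of cyclopamine with ethanol uses the treatment means, which the rule subtracted and did not use. It asks whether the variable probe sets also differ between the treatments. A large spread within treatments lowers limma's moderated t-statistic, so that the choice of members works against calls. With Benjamini-Hochberg adjustment over all 7960, limma called 0 of the 200 at 0.05 and 3 of all tested (0.0377%). At an unadjusted p under 0.05 it was 4 of 200 (2%) against 6.65% of all tested. The 2-sample t-statistic that the study's methods name gave 0 of the 200 at an unadjusted p under 0.05, against 7.05% of all tested. The choice of members works against calls by that statistic too. With the pair as a replicate block, limma called 0 of the 200 after adjustment and 24 (12%) at an unadjusted p under 0.05, against 10.9% of all tested. With the clutch as a block, limma called 0 after adjustment and 11 (5.5%) at an unadjusted p under 0.05, against 11.6%. For 0 of the 200 did all cyclopamine arrays lie on one side of all ethanol arrays, against 4.3% of all tested. The p-values measure the spread between these pools.

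The 4 members with an unadjusted p under 0.05 were 3 probe sets of *mt4.L* and *ass1.S*, and none passed after adjustment. One *mt4.L* probe set read 9.16, 7.42, 7.96 and 10.88 in ethanol and 10.97, 10.41, 10.73 and 10.79 in cyclopamine. Ethanol 4 lay among the cyclopamine arrays, and the other ethanol arrays lay below them. The difference was 1.87 ± 0.64 (log2, SE, n = 4 per treatment, adjusted p = 0.644 in limma), and the other probe sets of the gene gave 1.92 ± 0.70 and 1.53 ± 0.56. *ass1.S*, argininosuccinate synthase of arginine synthesis, read 8.67, 10.41, 8.41 and 10.92 in ethanol and 11.16, 11.49, 10.94 and 10.52 in cyclopamine, a difference of 1.43 ± 0.54 (SE, n = 4 per treatment, adjusted p = 0.70 in limma). Here too the treatments overlapped through ethanol 4. Of the tissue lists, 0 of 14 keratin, 0 of 8 cartilage, 0 of 11 red blood cell, 1 of 27 junction (lower) and 1 of 21 muscle (higher) probe sets had an unadjusted p under 0.05 in limma. The probe set of the junction list was *dscc1.L*, which is not a gene of junctions. Limb mesenchyme had 5 of 25 (3 higher, 2 lower), and the mitotic cell cycle list had 36 of 57, all lower, where all tested had 6.65%. After adjustment 0 probe sets of these lists passed. The 200 had a median difference of 0.186, against 0 for all tested, with 137 higher and 63 lower after cyclopamine. Among all tested, 3986 were higher and 3974 lower. Members of a group move together, so the 200 are not independent directions.

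Probe sets of the same gene allowed a partial check of the readings. Each was compared with the member of the gene that it correlated with best. Of 50 other tested probe sets for members' genes, 25 were members themselves. The 25 others had a median of this best correlation of 0.705, 9 of them over 0.8. Of 33 tested probe sets for the other homeolog, 13 were members, and the 20 others had a median of 0.792, 8 of them over 0.8. Agreement between probe sets was thus not general, with *ckm.L* and *krt19* among the exceptions, and cross-hybridization between copies can raise it. Taking the best correlation can raise these values too, and no value for unrelated probe sets was set beside them.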

How the data were processed

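RNA from 8 pools of hindlimb buds was measured on Affymetrix arrays. The deposited values are linear intensities that the authors computed for each probe set. Their background correction and summarization are steps not given in the sources used here. Arrays have no read depth, and the number of arrays limits the precision. Of 15611 probe sets, 120 controls were left out, and those with a mean intensity of 200 or more were quantile-normalized and converted to log2. Symbols came from the array annotation (9304 probe sets with a single symbol, 9227 of them listed by RefSeq). The members, the lists and the alternatives were chosen with earlier results of these data known.

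limma 3.58.1 in R 4.3.3 compared the treatments without a block over all tested probe sets. Pairing comes from the study's methods, by which a pair shares clutch, exposure day and extraction. Deviations correlated within pairs 1, 2 and 3 (0.495, 0.672 and 0.378 over all tested) and not within pair 4 (−0.108). Between any 2 arrays at most 0.219% of values were equal. Grouping used scipy 1.17.1, and figures matplotlib 3.10.9.

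Genes were named by these rules: the 20 members with 1 symbol and the largest SD, up to 6 per list and per group of 10 or more, and the last 2 inside and first 2 outside the set. Not every such gene is reported. The genes outside the rules, such as *smo.L*, *frzb.S*, *cnmd.L*, *sox9.S*, *myf5.L* and *hba4.S*, were chosen after their values were seen.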

Additional observations from a re-analysis of the deposited data

Results flagged for a closer look

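For 77 values (20 means of lists and groups and 57 named genes), the 4 arrays of each treatment were searched for 1 array far from the other 3 by Dixon's ratio of the gap to the range. Its critical value was passed in 5 of 154 comparisons (3.25%), where chance gives about 1 in 20. Many of these values were chosen for large deviations on the same arrays, so the ratios are a description and not a test. *myh8.L* and *myl1.S*, both sarcomere genes, were low in cyclopamine 1 (0.855 and 0.833). *hsph1.L* was low in ethanol 3 (0.899) and in cyclopamine 4 (0.836), and *socs3.L* was high in ethanol 4 (0.887).

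The keratin list mean was higher with cyclopamine in both pairs of clutch A and lower in both of clutch B. The mean difference was lower in clutch B than in clutch A by a log2 value of −0.828. The difference between the clutches was not tested, pair 4 supplied most of it, and pair 3 had a difference of −0.023 that was 0.034 with array medians subtracted and 0.107 over the 11 keratins outside the 200.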

How the results depend on the processing

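Of the 200 members, 182 were among the 200 chosen from the values as deposited, 186 with array medians subtracted, 191 with quantile normalization over all probe sets and 134 with a mean intensity of 100 or more. With a mean of 400 or more it was 115, since 116 of the 200 passed that filter. Without 1 array 160 to 179 remained, the fewest without cyclopamine 4, and without both arrays of a pair, an alternative chosen after seeing the data, 134 to 156. The share of pair 4 in the squared deviations was 24.5%, 20.7% with 100 members and 25.6% to 30.4% without 1 array of another pair. Without such an array, an even share of pair 4 lies above the 25% it has with all 8 arrays. The share could not be computed without an array of pair 4. Under the 16 alternatives 0 of the tested members were called, 15 times by limma and once by the methods' 2-sample t-statistic. Of all tested probe sets it called 3, 6 with the clutch as a block, 2 with the replicate block of the pairs, 0 with the methods' 2-sample t-statistic and 1 to 2 without 1 array. The pair 4 differences of the keratin, cartilage and muscle lists kept their direction under the 6 alternatives of each. That of the red blood cell list was 0.017 at a mean intensity of 100 or more and −0.074 at 400 or more, from 0.17. The members formed 6 groups of 10 or more at a height of 0.3 and 9 with complete linkage. These held 161 and 146 of the 200, against 195 in the main setting.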
